A study of Mus musculus with 8 samples.

Results

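The genes described here are 37 components of WNT signalling: 19 WNT ligands, the 10 Frizzled receptors and 8 genes that are transcribed in response to WNT or that feed back on the pathway. They were taken from a given list of names, and every probe whose gene name in the scanner files equalled one of them, and that was present on both array designs used, was a member. This gave 49 probes of the 39429 shared probes, and 37 of 30040 named genes. Of the 37 genes, 25 had 1 probe and 12 had 2. RNA came from GFP-positive cells sorted from kidney rudiments of NMRI mouse embryos at E11.5 (embryonic day), with both sexes pooled and around 100000 cells in a pool. Control embryos were Tbx18(GFP/+), with 1 allele of the T-box transcription factor gene Tbx18 replaced by GFP (3 arrays). Tbx18 null embryos were Tbx18(GFP/GFP) (3 arrays). Tbx18VP16 embryos were Tbx18(cre/+);Hprt(Tbx18VP16) (2 arrays), in which Cre from the Tbx18 locus switches on a CAG-driven protein that joins Tbx18 to VP16, a viral activation domain; the transgene sits at Hprt and also makes GFP. Every group therefore carried at least 1 altered Tbx18 allele, GFP marked cells in which the Tbx18 locus is or was active, and no wild-type sample was included. Controls and nulls were sorted on GFP made from the Tbx18 locus itself, and Tbx18VP16 cells on GFP switched on by Cre.

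WNT proteins are secreted lipid-modified ligands that bind Frizzled receptors together with a co-receptor. In the canonical branch, binding stabilises beta-catenin, which enters the nucleus and joins TCF/LEF factors on target genes. Some targets restrain the pathway again: Axin2 helps to degrade beta-catenin, Nkd1 acts on Dishevelled, and Rnf43 and Znrf3 remove Frizzled from the cell surface unless R-spondins engage Lgr receptors such as Lgr5. In the developing mouse kidney Wnt9b and Wnt11 are made by the ureteric epithelium, Wnt4 marks and drives the conversion of mesenchyme into nephrons, and WNT signals from the ureteric epithelium pattern the mesenchyme around the ureter.

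Levels are log2 signals from which the array's upper quartile over the shared probes was subtracted, so a level of 0 is that quartile and each unit is a doubling. A probe was called above background on an array where at least 50% of its spots carried the scanner's flag for that. Levels are compared within a probe only, since probes differ in how brightly they hybridise. The share of all probes above background was 60.1% to 66% per array, and no spot was saturated. Tbx18 itself was at -0.02, 1.20 and 1.04 on the control arrays, -2.40, -1.34 and -2.35 on the null arrays and 1.34 and 1.06 on the Tbx18VP16 arrays. Its change in the null was -2.77 ± 0.44 (SE; adjusted p = 0.118, and 0.0321 with replicate pairs as a block). What the GFP allele removes from Tbx18 is not stated in the labels, so this probe is a limited check. All 14 markers of ureteric mesenchyme and all 12 of renal stroma were above background on every array. The arrays with replicate number 3 were on a second slide and were made from 10 ng of RNA in place of 20 ng, and the Tbx18VP16 arrays were on a slide of their own with another design. Slide, design and genotype cannot be told apart for Tbx18VP16. Replicates are separate pools of cells, and nothing states that they came from separate litters, so p-values measure the spread between these pools. Fewer cells of a type and less RNA per cell cannot be told apart in such pools.

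The receptors were the most evenly present of the 3 classes. All 10 Frizzled genes were above background on all 8 arrays. Among the ligands, 8 of 19 were above background on all 8 arrays, namely Wnt1, Wnt4, Wnt5a, Wnt5b, Wnt6, Wnt8b, Wnt9a and Wnt11. A further 3 ligands were above background on some arrays: Wnt9b and Wnt16 on 7 and Wnt7b on 2, both of them null arrays. The remaining 8 ligands, Wnt2, Wnt2b, Wnt3, Wnt3a, Wnt7a, Wnt8a, Wnt10a and Wnt10b, were above background on none. Of the targets and feedback genes, Lef1, Tcf7 and Nkd1 were above background on all 8 arrays and the other 5 on 5 to 7 arrays. Between 23 and 29 of the 37 genes were above background on an array, lowest on control 1 and highest on null 2.

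In the order of protein-coding genes in RefSeq (GRCm38.p6), 8 of the ligand genes stand next to another member, as 4 neighbouring pairs. In each pair 1 gene was above background and its neighbour was not. Wnt6 was above background on 8 arrays and Wnt10a on 0, with 19.2 kb between their probes on chromosome 1 (distances in mm9). Wnt1 and Wnt10b on chromosome 15 were on 8 and 0 arrays, with probes 21.1 kb apart. Wnt9a and Wnt3a on chromosome 11 were on 8 and 0 arrays, 85.4 kb apart. Wnt9b and Wnt3, also on chromosome 11, were on 7 and 0 arrays, 90.2 kb apart. The level of Wnt1 rests on 1 of its 2 probes. The probe at base 2310 of the transcript was above background on 8 arrays, and the probe at base 1385 on 0. A pair of probes in which 1 was on no array above background also occurred for Fzd5, Axin2 and Lgr5. In the other 8 genes with 2 probes, both were above background on 5 or more arrays.

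Across the 28 members tested between null and control, the canonical targets Sp5, Rnf43 and Znrf3 and the ligand Wnt4 stood higher in the null. Sp5 was tested only because its null arrays were above background. Rnf43 and Znrf3 were above background on 2 and 1 of 3 control arrays, so they also met the filter of 3 of 6 only with null arrays. None of the 4 passed the threshold in the fit without pairs. In that fit 0 of 28 members and 0 of 19655 genes (0%) had an adjusted p below 0.05 (limma, Benjamini-Hochberg over all genes). At an unadjusted p below 0.05 there were 5 members, all higher, against 4.81% of all genes in either direction and 2.77% higher. Same-numbered control and null pools varied together, so each pair was also fitted as a block. With this block 4 of 28 members passed, all of them higher in the null, beside 183 genes in all (0.931%), of which 95 were higher (0.483%). This count was 0 without pair 1, 0 without pair 2 and 6 without pair 3. Over all genes it was 0, 0 and 699, with 1 residual degree of freedom in each such fit. Without pair 1 and without pair 2 the changes were 3.44 and 3.70 for Sp5, 2.83 and 2.74 for Wnt4, 1.67 and 1.66 for Rnf43 and 1.02 and 1.11 for Znrf3. The median change over the 28 members was 0.32, and over all genes 0.01. By class, the median was 0.17 for 10 ligands (6 higher), 0.08 for 10 receptors (6 higher) and 0.94 for 8 targets and feedback genes (7 higher). The 7 of 8 targets stayed higher under each of the 4 other scalings, while the ligands came to 5 of 10 under quantile normalisation and the authors' values.

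**Figure D1:**
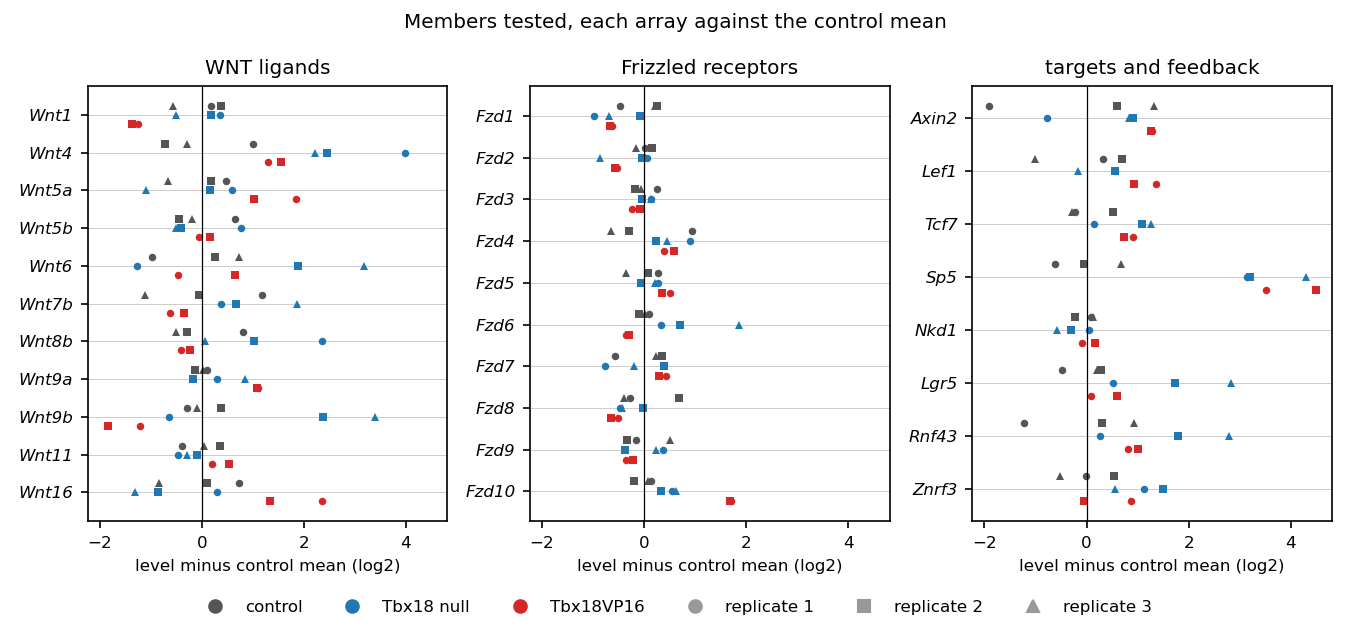
Level of each of the 29 tested members on each array minus its control mean (x axis, log2), one row per gene, coloured by group, with the symbol giving the replicate number. The null arrays of Sp5 and Wnt4 lie apart from the control arrays, and both Tbx18VP16 arrays of Fzd10 lie above all other arrays of that gene.

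Sp5, a zinc finger transcription factor and a direct target of beta-catenin, was above background in the altered pools and not in control. It was at -7.57, -6.99 and -6.28 on the control arrays and at -3.81, -3.74 and -2.65 on the null arrays. All null arrays were above all control arrays, and Sp5 was above background on 0 of 3 control and 3 of 3 null arrays. The change was 3.55 ± 0.44 (SE, n = 3 and 3). With each control array set no lower than its lowest level above background, it was 7.49-fold. This bound is not a strict minimum, since a probe above that level can go unflagged. On control 1 that level was -5.99, while Wnt7b at -5.18 was not above background. The adjusted p of Sp5 was 0.0828 without and 0.015 with pairs as a block, 0.0404 with the slide as a block and 0.0299 when all 8 arrays shared 1 fit (limma). Sp5 met the filter of 3 of 6 arrays only through the null arrays, the group where it was high. With no filter its adjusted p was 0.0732 without and 0.0521 with pairs as a block, so it did not pass. The pair differences were 3.77 and 3.25 on the first slide and 3.63 on the second, all of them positive. Normexp background correction gave a change of 1.33.

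The promoter of Sp5 is shown because it is 1 of 3 member promoters that held the TCF/LEF letters searched. Windows of 300 bases, 250 before and 50 after each RefSeq start (GRCm38.p6), were found for 27 of the 37 members, 35 windows in all. The letters CTTTGAT, on either strand, were in the windows of 3 of these 27 genes (3 of 35 windows), and in 3.73% of all 32851 windows. They are printed in capitals below, for Sp5 in the 250 bases before its start and for Wnt11 and Wnt5b with 10 bases on each side. In Wnt11 they lie on the opposite strand and so read ATCAAAG. They begin 104 bases before the start in Sp5, 51 in Wnt11 and 71 in the last of 3 Wnt5b windows.
Sp5, chr2:70474673-70474922, plus strand: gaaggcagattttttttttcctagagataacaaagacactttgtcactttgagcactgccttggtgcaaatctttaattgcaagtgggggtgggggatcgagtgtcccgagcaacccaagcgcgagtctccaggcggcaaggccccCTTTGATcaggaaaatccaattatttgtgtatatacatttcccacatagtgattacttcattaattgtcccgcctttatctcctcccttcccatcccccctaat
Wnt11, chr7:98835051-98835077, plus strand: acgtgggcggATCAAAGcgacggtccg
Wnt5b, chr6:119449441-119449467, minus strand: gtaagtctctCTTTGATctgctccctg
Of these 3 genes, Wnt11 had a change of -0.28 ± 0.27 (SE) and Wnt5b of -0.05 ± 0.44 (SE) in the null. The T-box letters GGTGTGA, on either strand, were in 0 of the 35 member windows and in 3.98% of all windows. The members' windows were richer in G and C than all windows, with medians of 67.3% and 52.7%. A match or its absence describes these letters in these windows only.

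Wnt4, the ligand of nephron induction, was measured by 2 probes that are shown here because they bear on the size of its change. The first starts at base 605 of the transcript. Its 60 bases cover 569 bases of the genome, so it crosses an intron of 509 bases, and it is printed in lower case as it stands on the array.
Wnt4, chr4:136851690-136852258 (mm9), plus strand: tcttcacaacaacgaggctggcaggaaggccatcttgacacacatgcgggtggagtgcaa
The probe across the intron was at -1.05, -1.28 and -1.50 on control arrays, 2.10, 1.97 and 1.28 on null arrays and 0.08 and -0.04 on Tbx18VP16 arrays. The 3 groups did not overlap, with Tbx18VP16 between the others. Tested probe by probe over 25651 probes, its change in the null was 3.06 ± 0.30 (SE; adjusted p = 0.0818, and 0.0194 with pairs as a block; limma). The second probe, at base 3748 (chr4:136855342-136855401), was brighter and stands for Wnt4 in the tests by gene. It was at 1.42, -0.29 and 0.14 on control and 4.41, 2.88 and 2.64 on null arrays. Again all null arrays were above all control arrays. Its change was 2.89 ± 0.60 (SE, n = 3 and 3), or 7.39-fold, and its adjusted p was 0.25 unblocked and 0.0208 when pairs were a block. The pair differences were 2.99, 3.17 and 2.5.

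Rnf43 and Znrf3, the ubiquitin ligases that clear Frizzled, also passed the threshold with pairs as a block. Rnf43 was at -6.47, -4.95 and -4.31 on control and -4.99, -3.46 and -2.46 on null arrays. These groups overlapped, while the pair differences were alike at 1.48, 1.49 and 1.85. The change was 1.60 ± 0.76 (SE), for which the adjusted p was 1 unblocked and 0.0322 blocked. With normexp and the block, Rnf43 had a change of 0.87 and did not pass (adjusted p = 0.0615). Znrf3 was at -6.30, -5.75 and -6.82 on control and -5.17, -4.79 and -5.73 on null arrays. All null arrays were above all control arrays, and the pair differences were 1.13, 0.96 and 1.09. For its change of 1.06 ± 0.37 (SE) the adjusted p was 0.773 unblocked and 0.0461 blocked. The blocked Znrf3 call was lost with quantile normalisation (adjusted p = 0.0592), the authors' values (adjusted p = 0.0716) and normexp (change 0.34, adjusted p = 0.29). With no filter on dim probes, none of the 4 blocked calls held (adjusted p = 0.0521 to 0.107). Znrf3 was close to background, above it on 1 of 3 control and 3 of 3 null arrays. Rnf43 was above it on 2 of 3 control and 3 of 3 null arrays. Both genes thus met the filter only with null arrays, the group where they were higher.

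Members whose arrays did not overlap and whose change was at least 2-fold numbered 4 of 28, all higher, against 2.46% of all genes in either direction and 1.52% higher. They were Sp5, which was tested only through its null arrays, Wnt4, Znrf3 and Lgr5. Znrf3 and Lgr5 were above background on 1 and 2 of 3 control arrays, so they too met the filter of 3 of 6 only with null arrays, where they were higher. Lgr5, the R-spondin receptor, was at -6.51, -5.75 and -5.82 on control and -5.51, -4.29 and -3.20 on null arrays. All null arrays were higher, but their differences from the paired control were uneven at 1, 1.46 and 2.62. The change was 1.69 ± 0.57 (SE; adjusted p = 0.727, and 0.119 with pairs as a block). Of the other targets, the TCF/LEF factor Tcf7 had a change of 0.83 ± 0.38 (SE), Lef1 and Axin2 of 0.32 each (SE 0.47 and 0.86) and Nkd1 of -0.27 ± 0.26 (SE). None of these 4 passed with or without the block. Axin2, the target most often used as a readout of the canonical branch, ranged from -7.14 to -3.90 over the control arrays alone, which is wider than its difference between groups.

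Of the ligands made by ureteric epithelium, Wnt9b, Wnt6 and Wnt7b spread widely among the null pools, while Wnt11 was at 0.46, 1.20 and 0.89 on control and 0.38, 0.76 and 0.57 on null arrays. Wnt9b was at -4.81, -4.14 and -4.62 on control and -5.16, -2.14 and -1.12 on null arrays. Null 1 was thus below every control array and null 2 and 3 above. Wnt6, another epithelial ligand, was at -5.29, -4.06 and -3.59 on control and -5.58, -2.42 and -1.14 on null arrays, with the same order of pools. The pair differences of Wnt7b were -0.79, 0.73 and 2.99. Neither Wnt9b (1.71 ± 0.94, SE) nor Wnt6 (1.27 ± 1.07, SE) passed, since both had adjusted p = 1 unblocked and 0.414 and 0.411 blocked, and Wnt7b was too dim to be tested here. The summed linear level of 20 ureteric epithelium markers such as Krt8, Cdh1 and Ret moved in the same pools. It was 1.95 to 3.05 on control arrays, 2.82, 8.09 and 22.3 on null 1, 2 and 3, and 2.84 and 2.98 on Tbx18VP16 arrays. Of these markers, 12 to 20 were above background on a control array, 11 to 20 on a null array and 9 to 13 on a Tbx18VP16 array. All 20 had a positive change in the null and 0 passed the test, with or without the block. Lgr5, Fzd6 and Rnf43 also had their largest pair difference in pair 3, at 2.62, 1.85 and 1.85. The 12 erythroid markers summed to 543 on null 3 and to 31 or less on every other array, and the 14 endothelial markers to 20.9 on null 3 and to 5.67 or less elsewhere. The part of these cells in the members' changes was not tested. The 15 markers of nephron progenitors, to whose sum Eya1 and Wt1 added most on Tbx18VP16 arrays, summed to 36.1 to 49.6 on control, 66.6 to 71.8 on null and 69.8 and 73 on Tbx18VP16 arrays. The single markers did not all follow that sum: Six2 was at 0.14 to 0.63 on control, 1.59 to 3.90 on null and 0.85 and 1.14 on Tbx18VP16 arrays. The median change of the list was 1.60 in the null and 0.27 in Tbx18VP16 pools. Its part in the members' changes was not tested.

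**Figure D2:**
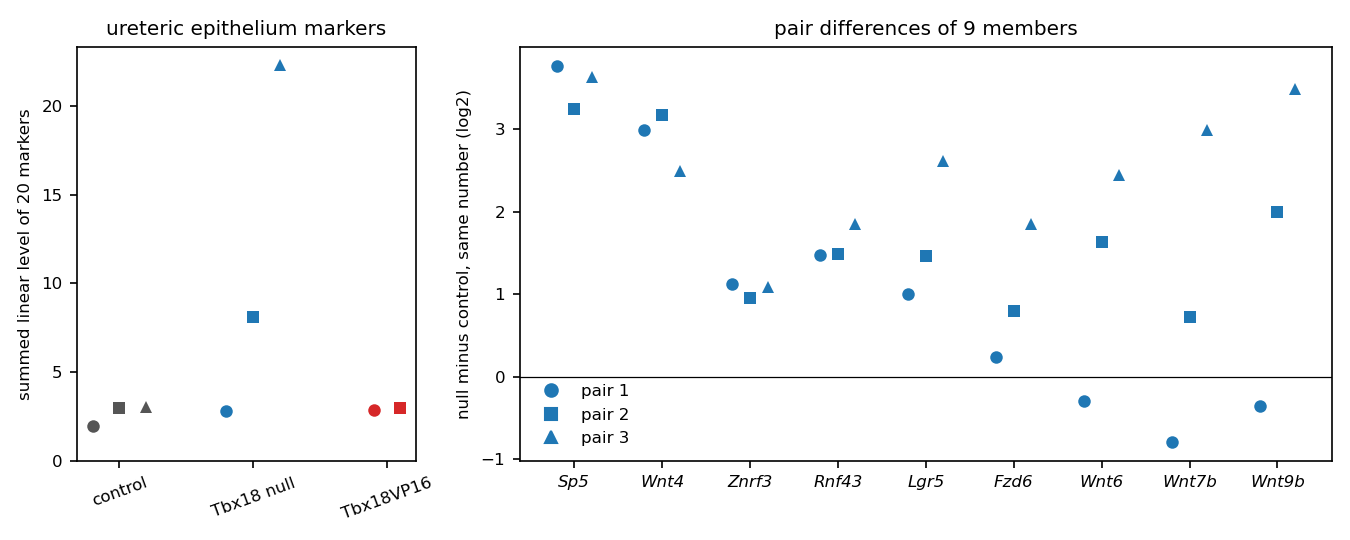
Left, summed linear level of 20 ureteric epithelium markers on each array (y axis), by group. Right, null minus control level within each replicate pair (y axis, log2) for 9 members; Sp5, Wnt4 and Znrf3 are alike in the 3 pairs, while Wnt6, Wnt7b and Wnt9b run from -0.29, -0.79 and -0.35 in pair 1 to 2.45, 2.99 and 3.49 in pair 3.

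The remaining ligands did not pass in the null by the probe that stands for the gene, with or without the block. Wnt8b, measured by 2 probes, had changes of 1.16 ± 0.62 (SE) and 1.73 ± 0.63 (SE), the second with an adjusted p over probes of 0.919 without and 0.0559 with pairs as a block. In the blocked fit Wnt8b passed with the mean of both probes (1.44, adjusted p = 0.0438) and without pair 3 (1.44, adjusted p = 0.00842). Wnt16 (-0.62), Wnt11 (-0.28), Wnt5a (-0.12), Wnt5b (-0.05), Wnt1 (0.01) and Wnt9a (0.33) had unadjusted p of 0.281 or more. Among the Frizzled genes the changes ran from -0.58 for Fzd1 to 0.97 for Fzd6, and none passed with or without the block. Fzd10 was at -0.92, -1.26 and -0.99 on control and -0.52, -0.73 and -0.43 on null arrays. The groups did not overlap, yet the change of 0.50 ± 0.23 (SE) gave adjusted p = 1, and 0.174 blocked. Fzd6 was at -3.36, -3.55 and -3.44 on control and -3.12, -2.75 and -1.59 on null arrays, again without overlap. Its change was 0.97 ± 0.40 (SE; adjusted p = 1, and 0.309 with the block).

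In Tbx18VP16 pools 2 members rose over control, the target Sp5 and the receptor Fzd10. These were 2 of 29 members tested, beside 1099 of 20540 genes (5.35%), of which 419 were higher (2.04%) and 680 lower (3.31%). This comparison shares its control arrays with the one above. The median change of the 29 members was 0.36, and that of all genes -0.14. The scaling of the arrays bears on this comparison. The median of all genes was 0.31 with the percentile taken over all spots, -0.02 with quantile normalisation and with the authors' values, and -0.22 with normexp, and the members' median was 0.81, 0.42, 0.43 and 0.03 in that order. Calls over all genes, 419 higher and 680 lower, became 1096 and 248, 557 and 622, 565 and 569, and 211 and 416. All 8 targets and feedback genes were higher under every scaling but normexp, where 6 of 8 were. The receptors were higher in 4 of 10, in 7 of 10 over all spots and in 3 of 10 with normexp. Sp5 and Fzd10 passed under all 5 scalings.

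Sp5 was at -3.43 and -2.46 on the Tbx18VP16 arrays, against -7.57 to -6.28 on control arrays. Both were above every control array and above background. Only null and Tbx18VP16 arrays brought Sp5 past the filter. The change was 4 ± 0.51 (SE, n = 2 and 3), with an adjusted p of 0.00662 (limma), and 10.3-fold against the bound described above. It was 1.49 with normexp, and the adjusted p was 0.107 without Tbx18VP16 replicate 2. Against the null the difference was 0.45 ± 0.51 (SE; adjusted p = 0.633), and the 5 altered arrays overlapped.

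Fzd10 was at 0.65 and 0.62 on the Tbx18VP16 arrays, against -1.26 to -0.92 on control and -0.73 to -0.43 on null arrays. The 3 groups did not overlap. The change was 1.69 ± 0.22 (SE, n = 2 and 3) or 3.23-fold over control (adjusted p = 0.00788), and 1.19 ± 0.22 (SE) or 2.28-fold over the null (adjusted p = 0.0331). Without Tbx18VP16 replicate 1 or 2, which leaves 1 array taken to vary like the other groups, the adjusted p over control was 0.108 or 0.122. Over the null it was 0.257 or 0.306, and it was 0.0541, 0.106 and 0.0594 without control 2, null 2 and null 3. The probe lies at chr5:129109798-129109857 (mm9), plus strand, and starts at base 2817 of the transcript. No other Frizzled gene passed against either group. Their changes over control ran from -0.65 for Fzd1 to 0.49 for Fzd4.

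**Figure D3:**
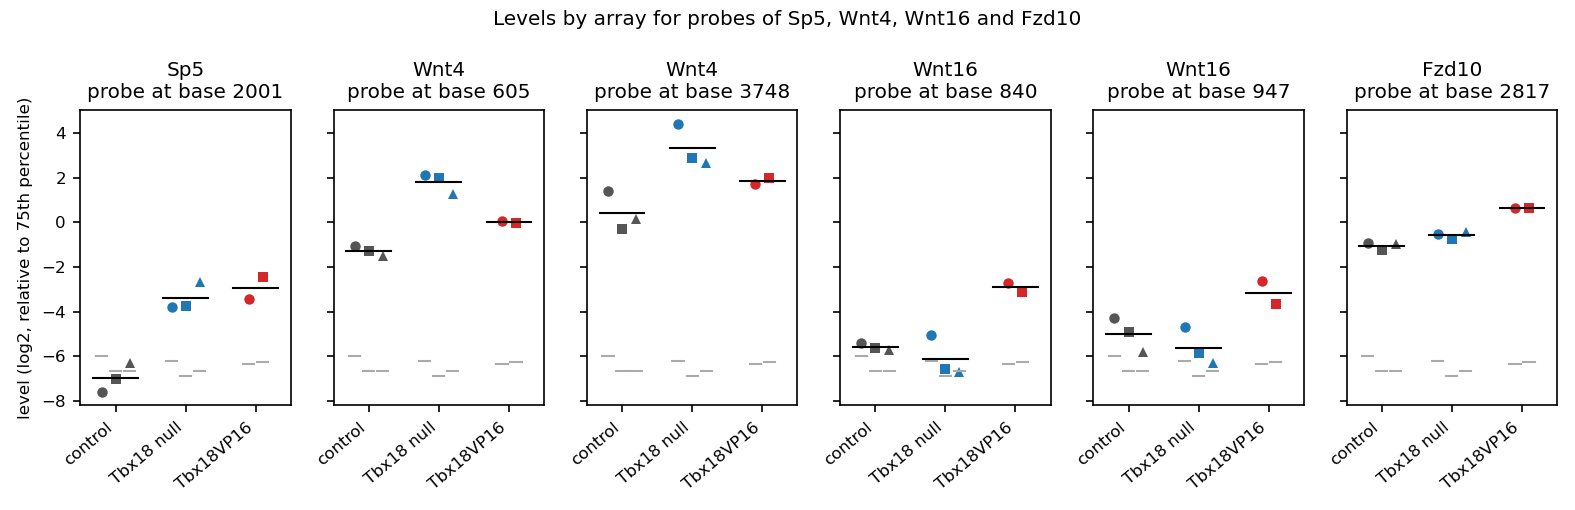
Level (y axis, log2 relative to the 75th percentile) on each array for 6 probes of Sp5, Wnt4, Wnt16 and Fzd10, by group, with black lines at group means, symbols for replicates and short grey lines at the lowest level above background on that array. Sp5 control arrays lie near the grey lines, both Wnt4 probes separate all 3 groups, and both Wnt16 probes are highest on the Tbx18VP16 arrays.

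Wnt16, a ligand with 2 probes, gave a call that depended on the probe. Both are shown in lower case, since the finding rests on them, and an intron lies between their positions in the genome.
Wnt16, base 840, chr6:22241135-22241194 (mm9), plus strand: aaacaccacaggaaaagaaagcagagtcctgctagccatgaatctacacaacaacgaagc
Wnt16, base 947, chr6:22247804-22247863 (mm9), plus strand: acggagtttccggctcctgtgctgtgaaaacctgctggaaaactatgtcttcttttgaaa
The probe at base 840 was at -5.38, -5.64 and -5.70 on control, -5.06, -6.56 and -6.69 on null and -2.70 and -3.10 on Tbx18VP16 arrays. Both Tbx18VP16 arrays were above all others. Over 26866 probes its change was 2.67 ± 0.47 (SE; adjusted p = 0.0235) over control and 3.20 ± 0.47 (SE; adjusted p = 0.0205) over the null. The probe at base 947, which had the higher mean and stands for the gene, was at -4.26, -4.89 and -5.82 on control, -4.70, -5.84 and -6.30 on null and -2.64 and -3.66 on Tbx18VP16 arrays. The Tbx18VP16 arrays were again above all others. Its change was 1.84 ± 0.60 (SE; adjusted p = 0.121) over control and 2.46 ± 0.60 (SE; adjusted p = 0.0645) over the null. With the mean of both probes Wnt16 passed against both groups (2.26 and 2.83, adjusted p = 0.0467 and 0.0312), and against the null also with the percentile over all spots, quantile normalisation or without null 1. With normexp the changes were 0.84 and 1.

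Members without overlap and with at least a 2-fold change from control numbered 9 of 29, 7 higher and 2 lower, against 16.7% of all genes (5.47% higher and 11.2% lower). Besides Sp5, Fzd10 and Wnt16 these were Wnt1, Wnt4, Wnt5a, Wnt9a, Wnt9b and Lef1, and none of the 6 passed the test. Wnt5a, the non-canonical ligand that signals through Ror2, was at -1.31, -1.59 and -2.43 on control, -1.19, -1.62 and -2.87 on null and 0.07 and -0.76 on Tbx18VP16 arrays. Both Tbx18VP16 arrays were higher than all others, with a change of 1.44 ± 0.55 (SE; adjusted p = 0.172). Wnt9a was at -4.29, -4.51 and -4.36 on control and -3.29 and -3.30 on Tbx18VP16 arrays, a change of 1.10 ± 0.31 (SE; adjusted p = 0.0853). Wnt9a passed with the percentile over all spots (1.55, adjusted p = 0.0274) and with only the arrays of both groups (adjusted p = 0.047), and had a change of 0.45 with normexp (adjusted p = 0.318). Its null arrays, at -4.08, -4.56 and -3.53, were all below Tbx18VP16. The detected Wnt1 probe was at -0.41, -0.22 and -1.17 on control, -0.24, -0.42 and -1.11 on null and -1.85 and -1.97 on Tbx18VP16 arrays. Tbx18VP16 was lowest, with changes of -1.31 ± 0.37 (SE; adjusted p = 0.0813) from control and -1.32 ± 0.37 (SE; adjusted p = 0.0887) from the null. Without control 3 the first was -1.60 (adjusted p = 0.0486). Wnt9b was at -5.74 and -6.35 on Tbx18VP16 arrays, below all control arrays, with a change of -1.52 ± 0.99 (SE; adjusted p = 0.403). With null 1 left out of the shared fit that p was 0.0476, and with only the arrays of both groups it was 0.0424. Lef1, the TCF/LEF factor, was at -2.24, -1.87 and -3.57 on control, -2, -2 and -2.73 on null and -1.20 and -1.64 on Tbx18VP16 arrays. Its change was 1.14 ± 0.50 (SE; adjusted p = 0.223), and the probe of Lef1 that crosses an intron gave 0.39 ± 0.58 (SE).

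Wnt4 took a middle place. The probe at base 3748 was at 1.73 and 1.98 on Tbx18VP16 arrays, above every control and below every null array. Its change from control was 1.43 ± 0.63 (SE; adjusted p = 0.222) and from the null -1.45 ± 0.63 (SE; adjusted p = 0.225). The probe across the intron had changes of 1.30 ± 0.30 (SE; adjusted p = 0.0567) and -1.76 ± 0.30 (SE; adjusted p = 0.0301). Both probes of Wnt4 were thus lower in Tbx18VP16 than in null pools, and 1 of 2 passed the threshold.

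Between Tbx18VP16 and null pools, Fzd10 was the 1 of 29 members that passed, beside 756 of 20540 genes (3.68%), of which 241 were higher (1.17%) and 515 lower (2.51%). That split was 678 higher and 165 lower with the percentile over all spots, 353 and 417 with quantile normalisation, and 391 and 399 with the authors' values. The ligands had a median difference of -1.17, the receptors of -0.16 and the targets of 0.15, and all genes of -0.15. The receptors' direction depended on the scaling: 3 of 10 were higher, 9 of 10 with the percentile over all spots, 5 of 10 with quantile normalisation and the authors' values and 2 of 10 with normexp. Without overlap and with at least a 2-fold difference there were 9 of 29 members, 3 higher and 6 lower, against 15.6% of all genes (4.03% higher and 11.6% lower): Wnt1, Wnt4, Wnt5a, Wnt7b, Wnt8b, Wnt9b, Wnt16, Fzd6 and Fzd10. Wnt9b had a difference of -3.24 ± 0.99 (SE; adjusted p = 0.114). Without null 1, the null pool in which Wnt9b was lowest, it was -4.41 with an adjusted p of 0.00569. Fzd6 was at -3.80 and -3.74 on Tbx18VP16 arrays, below every null array, with a difference of -1.28 ± 0.41 (SE; adjusted p = 0.128). Wnt8b was at -1.49, -2.83 and -3.78 on null and -4.25 and -4.08 on Tbx18VP16 arrays, a difference of -1.47 ± 0.64 (SE; adjusted p = 0.231). Its control arrays, at -3.05, -4.15 and -4.36, overlapped both. Wnt7b was at -5.97, -5.68 and -4.48 on null and -6.97 and -6.70 on Tbx18VP16 arrays, on both of which it was not above background. Against the lowest level above background on those 2 arrays Wnt7b was 1.89-fold lower. Only null arrays, where Wnt7b was higher, brought it past the filter and so into the count of 6 lower members. The adjusted p of the measured difference was 0.242. The ureteric epithelium markers differed in the same direction, 20 of 20 lower in Tbx18VP16 than in null pools with a median of -1.97 and 0 passing the test. Their part in the differences of Wnt9b, Wnt7b and Fzd6 was not tested. Platelet markers passed in 7 of 7 over control in Tbx18VP16 pools, beside 5.35% of all genes. Of these 7 markers, 1, 3 and 2 were above background on control 1, 2 and 3, and 7 on each Tbx18VP16 array. Some of them thus met the filter only through arrays where they were high, so the 7 of 7 is not on the same footing as the share of all genes. Their summed levels were 0.0662 to 0.115 on control, 0.0894 to 1.67 on null and 4.54 and 8.93 on Tbx18VP16 arrays. Their part was not tested either.

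**Figure D4:**
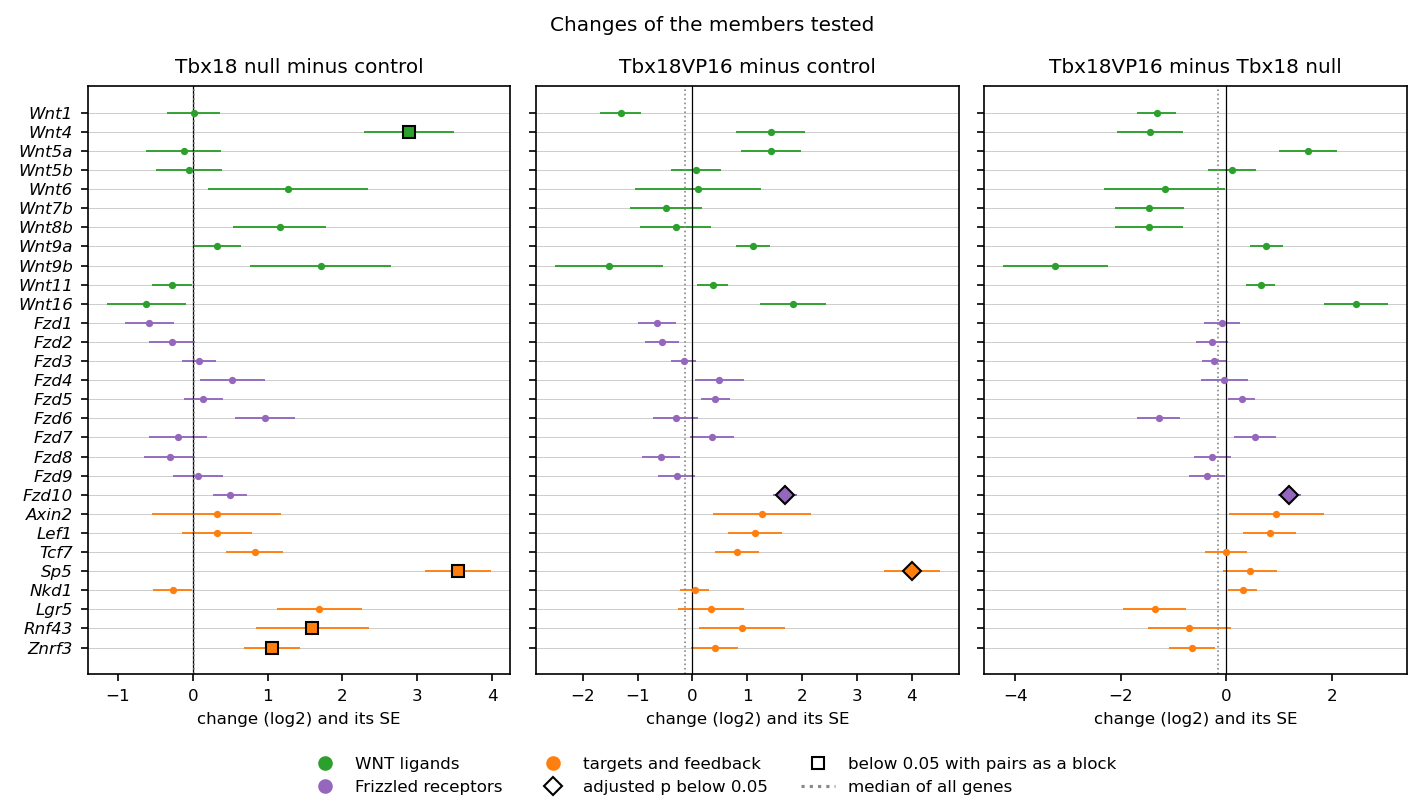
Log2 change (x axis) of each tested member with its standard error in the 3 comparisons, coloured by class. Diamonds mark an adjusted p below 0.05, squares an adjusted p below 0.05 with replicate pairs as a block, and dotted lines the median of all genes; Sp5 and Fzd10 carry diamonds over control, and Fzd10 alone over the null.

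The other genes of the pathway were read as 4 lists. Over all genes, 5.35% passed in Tbx18VP16 pools over control and 3.68% over the null. Between null and control 0% of all genes passed, and 0.931% with pairs as a block. In the list of R-spondins and secreted antagonists, which raise or block WNT signals outside the cell, 0 of 14 tested genes passed in the null and 3 with pairs as a block. Rspo1 rose (3.76 ± 0.41, SE; adjusted p = 0.0682 without and 0.0172 with the block). Sfrp2, a soluble Frizzled-like antagonist, and Dkk2, which binds the LRP co-receptors, fell in the blocked fit (-1.88 ± 0.30 and -2.14 ± 0.40, SE; adjusted p = 0.0278 and 0.0225). In Tbx18VP16 pools 7 of 15 passed over control. The R-spondins Rspo1, Rspo2 and Rspo3 rose by 3.99 ± 0.44, 2.93 ± 0.28 and 2.43 ± 0.25 (SE). The antagonists Dkk1, Dkk2, Sfrp2 and Sfrp1 changed by -3.79 ± 0.24, -3.59 ± 0.41, -2.47 ± 0.31 and -0.92 ± 0.21 (SE). Their adjusted p ran from 0.000531 for Dkk1 to 0.0425 for Sfrp1. The median of that list was -0.29 in the null and -0.18 in Tbx18VP16 pools. Against the null, Rspo2 (3.45 ± 0.28, SE) and Rspo3 (1.88 ± 0.25, SE) were higher and Dkk1 (-2.97 ± 0.24, SE) lower in Tbx18VP16 pools. Sostdc1, a WNT and BMP antagonist, was 4.4-fold lower against the lowest level above background (adjusted p = 0.031).

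Among 12 receptors other than Frizzled and genes of ligand secretion, 0 of 10 tested passed in the null. Over control in Tbx18VP16 pools 1 of 12 passed, Ror2, the Wnt5a receptor kinase, which rose by 1.48 ± 0.23 (SE; adjusted p = 0.0146). Ror2 was at 0.74, 0.78 and 1.14 on control, 1.33, 1.51 and 1.25 on null and 2.27 and 2.47 on Tbx18VP16 arrays, so the 3 groups did not overlap. Porcn, which attaches the lipid to WNT proteins, was higher in Tbx18VP16 than in null pools (1.58 ± 0.34, SE; adjusted p = 0.0482). Of 26 intracellular components tested, 0 passed in each of the 3 comparisons, with medians of 0.09, -0.08 and -0.06. In the null the smallest p of the list belonged to Celsr2 (1.16 ± 0.28, SE), Celsr1 (0.95 ± 0.27, SE) and Prickle1 (-0.87 ± 0.39, SE). With pairs as a block 0 of the 26 passed in the null as well. Among other target genes, 0 of 15 passed in the null and 2 with the block, Fgf9 (2.92 ± 0.80, SE; adjusted p = 0.0334) and Twist1 (-2.01 ± 0.89, SE; adjusted p = 0.0205), the latter named after its value was seen. Fgf9 was near background at -7.66, -6.49 and -5.85 on control arrays. Control 1 was below the lowest level above background on that array (-5.99), so Fgf9 met the filter of 3 of 6 only with null arrays, where it was higher. Over control in Tbx18VP16 pools 2 of 16 passed, Tnfrsf19 (2.20 ± 0.25, SE; adjusted p = 0.0045) and Msx2 (1.76 ± 0.36, SE; adjusted p = 0.0336). The medians of that list were 0.70 in the null and 0.27 in Tbx18VP16 pools.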

How the data were processed

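Agilent 1-colour arrays carried labelled RNA of 8 pools of sorted cells. Per the file headers, Agilent Feature Extraction 10.7.3.1 made the spot intensity values, corrected for background, with probe positions on mm9. A table of values deposited by the authors has linear intensity with a floor of 10 and served as an alternative; its normalisation is not given in sources used here.

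Control and outlier spots were left out, the 4 spots of a probe averaged, and each array's 75th percentile, over the 39429 probes on both designs, subtracted from log2 of the deposited signal. Members were found by the gene name in the files. RefSeq (GRCm38.p6) gave names to 28421 probes through an accession, to 3026 through a symbol and to 339 through a synonym, while 7643 kept the file's name. A probe was tested if above background on at least 3 of 6 control and null arrays, or at least 2 of 8, and the tested probe of highest mean stood for its gene. The 6 control and null arrays were fitted with limma 3.58.1 (R 4.3.3), and Tbx18VP16 was compared with both in 1 fit of 8 arrays, with Benjamini-Hochberg adjustment over all genes and a threshold of 0.05, two-sided. The test script was tested on simulated data. Where no array of a group was above background, its levels were set no lower than the lowest level above background on each array. The fold printed against them is not a strict minimum, since unflagged probes can lie above that level.

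Deviations from group means correlated at 0.83, 0.729 and 0.445 between control and null arrays of the same number, and at -0.739 to 0.243 otherwise. Such deviations cancel out within a group, so high values for the same number lower the others. Arrays of number 3 also shared the second slide and the input of 10 ng, which cannot be told apart from a pair. The labels give the numbers and no shared litter or day. The numbers were therefore taken as pairs for that comparison, and the blocked fit stands beside the other. The block leaves 2 residual degrees of freedom. Numbers of Tbx18VP16 arrays gave -0.302 to 0.056 and were not taken as pairs. Arrays limit precision by their number.

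Per-array values were given for members that passed in any comparison, with or without the block, or whose arrays did not overlap and changed at least 2-fold, and values for up to 4 genes of smallest p from each pathway list in each comparison. Values of Wnt6, of other members outside this rule and of Twist1 were added after they were seen. The members and lists were chosen with earlier results of these data known. Exon and UTR annotation of the probes was not used here.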

Additional observations from a re-analysis of the deposited data

How the results depend on the processing

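The small number of arrays, the 2 Tbx18VP16 arrays above all, and signal near background for Sp5 controls, Znrf3, Lgr5, Rnf43, Wnt7b and Wnt16 limit these results. Of the tests of named members under other settings, 409 kept direction and side of the threshold, 49 passed only under the alternative, 9 no longer passed and 0 reversed. Most of these tests had no call in the main fit to lose. The 9 losses fell on Sp5 and Fzd10 over control, which passed in 17 and 16 of 18 other settings, and on Fzd10 over the null, in 12 of 18. A smaller change counts as kept, as for Sp5 in the null with normexp. Alternatives that joined the block with a second choice were added after seeing the data. 

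Members called in the null were 0, but 4 with the replicate block, 1 with the slide as a block and 1 with all 8 arrays in 1 fit. With the replicate block they were 3 with quantile normalisation, 2 with normexp, 3 with the authors' value table, 5 with the mean of all probes, 4 with the strict filter (27 members tested), 0 with no filter, and 0 to 6 without a replicate pair. In the unblocked fit, leaving out any replicate gave 0. The members' median change in the null, 0.32, was 0.26 with quantile normalisation, 0.16 with normexp, 0.23 with the authors' value table, 0.21 with no filter and 0.16 on the first slide only, with or without the replicate block where both were run. It was 0.26 to 0.33 without a replicate, and 0.16 to 0.41 with the replicate block without a pair. 

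Members called in Tbx18VP16 over control were 2, but 7 with the replicate block, 4 with only the arrays of both groups and 0 to 3 without a replicate, 1 and 0 without Tbx18VP16 replicates 1 and 2. The numbers of these arrays did not pair, and the block raised the calls over all genes from 1099 to 3632. The members' median change there, 0.36, was 0.81 with the percentile over all spots, 0.03 with normexp and 0.18 to 0.46 without a replicate. 

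Members called in Tbx18VP16 over the null were 1, but 2 with the percentile over all spots, 2 with quantile normalisation, 2 with the mean of all probes, 5 with the replicate block (3284 genes against 756), 0 with only the arrays of both groups and 0 to 3 without a replicate. Calls over all genes came to 57 and 79 without Tbx18VP16 replicate 2 and 1 over control, and 11 and 29 over the null. Without a filter 1 gene and with the strict filter 14 genes were called in the null, in place of 0, with 183 under the replicate block, 6 with the slide as a block, 71 with all 8 arrays and 4 without null 1. With the replicate block, 699 were called without pair 3, 0 without pair 1 or 2, 377 with normexp, 397 with the strict filter, 117 with quantile normalisation, 111 with the authors' values and 0 with no filter. Normexp gave 627 over control and 404 over the null. Over control there were 297 without control 2, 1925 without null 1 and 656 without null 2, and over the null 330, 635 and 153, with 446 without null 3 and 432 with only the arrays of both groups. The cause of these differences was not tested.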
